A study of Mus musculus with 161 samples.

Results

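Full-length CTCF was put back at a low or at a high level into mouse embryonic stem cells that had lost their own CTCF, and the folding of 1 region of the X chromosome was compared between the 2 levels. The comparison rests on 16 of 91 libraries made by 5C (chromosome-conformation capture carbon copy). By their labels, 2 libraries came from the full-length transgene line marked low expression and 14 from the full-length line of higher expression, EN133.10, all after 4 days of auxin and doxycycline (dox). Both lines derive from CTCF-AID cells with Tir1, in which the endogenous CTCF carries an auxin-inducible degron, so that auxin removes it while dox switches on a TetO-driven mouse CTCF transgene tagged with FLAG and mRuby2. Set beside them, without a test against the low line, were 2 libraries of the high line given auxin for 4 days without dox and 4 libraries of untreated CTCF-AID cells, which keep their endogenous CTCF. The 2 libraries without dox were also fitted against the 14 high ones, for counts of calls only. Each transgene line is 1 clone, so the amount of CTCF and other differences between the 2 clones cannot be told apart, and 5C does not measure the amount of CTCF itself. The study reports that even the high line made much less transgenic CTCF than the endogenous CTCF of CTCF-AID cells. High and low therefore rank the 2 transgene lines only. The labels do not say whether libraries of 1 group came from separate cultures, so p-values measure the spread between these libraries, which may be technical.

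CTCF is a zinc-finger protein that binds DNA through an oriented motif and holds up cohesin, the ring complex that extrudes chromatin loops. Where CTCF stops cohesin, contacts across the site become rarer, and the stretches between such sites are topologically associating domains (TADs). A 5C library counts ligation products between restriction fragments, so a high count means that the 2 fragments were often close together.

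The 5C primers tile 4.59 Mb around the X-inactivation centre, chrX:98831148-103425147 in mm9, and 6 CTCF-dependent boundaries, which the study had taken from earlier untreated CTCF-AID libraries that are not among these, cut it into 7 segments. Boundary B1 (chrX:99151148-99171148) lies inside Nhsl2, and B2 (chrX:99411148-99431148) lies in an interval without an annotated gene. B3 (chrX:100451148-100471148) lies in 4930519F16Rik. B4 (chrX:100671148-100691148) overlaps Xist, the noncoding RNA that coats the inactive X, its antisense gene Tsix, and Enox. B5 (chrX:101211148-101231148) overlaps no annotated gene, and B6 (chrX:103211148-103231148) overlaps Cox7b, a subunit of cytochrome c oxidase, and Atp7a, a copper transporter. Segment 3, between B2 and B3, holds Cited1, Hdac8 and Phka1. Segment 4 holds Cdx4, Chic1 and Tsx on the Tsix side of B4, and segment 5 holds Rlim, the ubiquitin ligase known as an activator of Xist, on the Xist side. Segment 6, the longest, holds Atrx and Magt1 among others.

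FLAG–CTCF peaks of the high line, called after 2 days of auxin and dox, place 78 CTCF sites in the region, in 54 of its 230 bins of 20 kb, and no such list of the low line was analysed here. The letters CCNNNAGNNGGC, a shortened form of the CTCF motif searched on both strands, were found in 39 of these 78 peaks (50.0%) and in 50.8% of all 49682 peaks of the genome. They were found in 3.7% of windows of the same length that lie 2000 bases beyond the edges of a peak. Peaks in the boundary bins themselves held 8 matches, all 8 on the plus strand of the reference, while the bins next to them held 2, both on the minus strand. At B5 neither the boundary bin nor the bins next to it held a peak. The 8 matches in boundary bins are printed to show the sites that stand where insulation was measured, read from the mm9 genome with the motif in capitals and 9 bases on each side.
B1, chrX:99170401-99170430, intron of Nhsl2: tcagatacaCCAGAAGAGGGCactggatcc
B2, chrX:99414652-99414681, between genes: ctgtatagtCCAGCAGAGGGCactggatgt
B2, chrX:99415163-99415192, between genes: tcagacacaCCAGAAGAGGGCgtcaaatct
B3, chrX:100455384-100455413, intron of 4930519F16Rik: accaggtgaCCACTAGATGGCggtatagta
B4, chrX:100677064-100677093, within Xist and Tsix, exonic: tgaaagaaaCCACTAGAGGGCaggtcacat
B4, chrX:100679562-100679591, exon of Tsix: ctgaataaaCCAGCAGGTGGCagcatgaat
B6, chrX:103214286-103214315, intron of Cox7b: tcaggcacaCCAGCAGGGGGCatcagatcc
B6, chrX:103221925-103221954, between genes: cttagaaggCCAGAAGAGGGCatcgattcc
A match describes letters in these windows, and binding at single matches was not measured.

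The depth differed within both groups. The low libraries held 3631870 and 10076872 counts, and the 12 high libraries with complete count tables held 5262254 to 23096139 counts with a median of 11957664. Low replicate 1 was therefore shallower than each of these 12 high libraries, and its part in the results is given by values at equal depth below. Library numbers in the labels place 5 high libraries in the same run of numbers as the low ones, and these 5 are used for a second comparison. A run was set here as a stretch of 5C library numbers with steps of at most 4, and the labels do not name it as a batch. The libraries without dox fall in that run too, and the untreated ones do not. The labels use the replicate numbers 3 and 4 for 2 high libraries each. In the later library of each number, contacts at 1600 kb and beyond stood above those of the other 12, and results were also computed without both.

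On average over the 6 boundaries, insulation was weaker in the low line than in the high line. The mean score lay above that without dox, a difference that was not tested. The insulation score of a 20-kb bin is the negative log2 of the mean contact between the 100 kb before and the 100 kb after it, relative to all bins, so a higher score means fewer contacts across the bin. Averaged over the 6 boundaries, the score was 0.50 and 0.51 in the 2 low libraries. In the 14 high libraries it ran from 0.54 to 0.71 with a median of 0.60, so both low libraries lay below all of them. The difference was -0.10 (0.51 ± 0.0086 against 0.61 ± 0.040, SD, n = 2 and 14; two-sided exact permutation test, p = 0.0167, the smallest this design allows; adjusted p = 0.029 over the 7 single-value tests of the report). The 2 libraries without dox had 0.37 and 0.38, and the 4 untreated ones 0.69 to 0.82. On the scale from the mean without dox to the mean of the high line, the low line stood at 56.8%. For single boundaries this share varied widely, from 17.8% at B4 to 110.3% at B1. The 5 high libraries of the same run had 0.58 to 0.71, and against them the difference was -0.12, with both low libraries below all 5. With both groups thinned to the lowest total of 3631870 counts and corrected anew, the difference was -0.096 (exact permutation p = 0.022, the smallest that 2 against 12 allows).

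**Figure D1:**
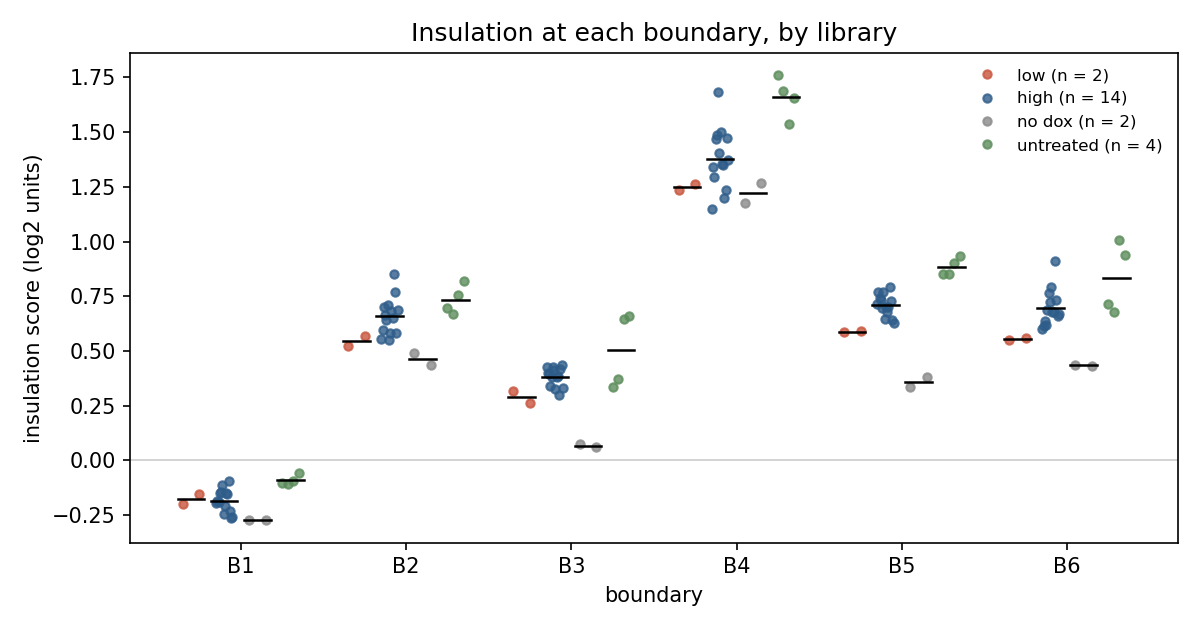
Insulation score (log2 units) at each of the 6 boundaries, 1 point per library, with a black bar at the group mean, for the low line (n = 2), the high line (n = 14), the high line without dox (n = 2) and untreated CTCF-AID cells (n = 4). At B5 and B6 both low libraries sit below all 14 high ones, while at B1 the groups overlap and every score is below 0.

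The boundaries did not all behave alike. At B5, beyond Rlim, the low libraries scored 0.59 and 0.59, and the high ones 0.63 to 0.79 with a median of 0.71. At B6, beside Atp7a, the low libraries scored 0.55 and 0.56, and the high ones 0.60 to 0.91 with a median of 0.68. The groups did not overlap at these 2 of 6 boundaries (33.3%), where the differences were -0.12 and -0.14 (exact permutation p = 0.0167 each, adjusted p = 0.05 over the 6, which is at the threshold and not under it). B3 had 0.32 and 0.26 in the low libraries and 0.30 to 0.44 in the high ones, a difference of -0.093 (exact permutation, adjusted p = 0.067). B2 had 0.52 and 0.57 against 0.55 to 0.85, a difference of -0.11 (exact permutation, adjusted p = 0.075). At both, the lower of the 2 low libraries lay below every high library and the other inside the high range. With a 200-kb window in place of 100 kb, the differences were -0.0089 at B3, -0.049 at B2, -0.20 at B5 and -0.091 at B6, so their sizes depended on the window, and over the 6 boundaries the mean difference was -0.078 (exact permutation p = 0.0167).

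B4, at Xist and Tsix, had the highest scores of the 6 boundaries in every group and the widest spread among the high libraries. The low libraries scored 1.24 and 1.26 there, and the high ones 1.15 to 1.68 with a median of 1.36, so the low ones lay within the high range (difference -0.13; exact permutation, adjusted p = 0.28). Without dox, B4 still scored 1.18 and 1.27, close to the low line. Against the 5 high libraries of the same run, which scored 1.41 to 1.68, the difference at B4 was -0.26, and both low libraries lay below all 5 at B3, B4, B5 and B6. B1, in Nhsl2, scored -0.20 and -0.15 in the low libraries and -0.27 to -0.094 in the high ones, with no measured difference beyond their spread (exact permutation, adjusted p = 0.88). Its score was below 0 in every library of the 4 groups, so contacts across it were more frequent than across the average bin. With 6 boundaries and a smallest p of 0.0167, an adjusted p under 0.05 needs at least 3 boundaries at that smallest p, and none of the 6 (0%) passed. Without the later high library of replicate 3, 3 of 6 passed, B3, B5 and B6, all lower in the low line, and 3 passed without the later libraries of replicates 3 and 4.

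Around the boundaries the gap was widest just before the boundary bin. Averaged over the 6 boundaries, the score peaked 20 kb before the boundary bin in every group. At that offset the low libraries had 0.65 and 0.67, the high ones 0.67 to 0.88 with a median of 0.77, the ones without dox 0.49 each and the untreated ones 0.86 to 1.03. Both low libraries lay below all high ones there and at the boundary bin itself. At 40 kb before and at 20 and 40 kb beyond the boundary bin, at least 1 low library lay within the high range. The score also varied less along the region, as a description without a test. The SD of the score over all scored bins was 0.44 and 0.45 in the low libraries, 0.45 to 0.51 in the high ones, 0.42 in both libraries without dox and 0.51 to 0.54 in the untreated ones.

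**Figure D2:**
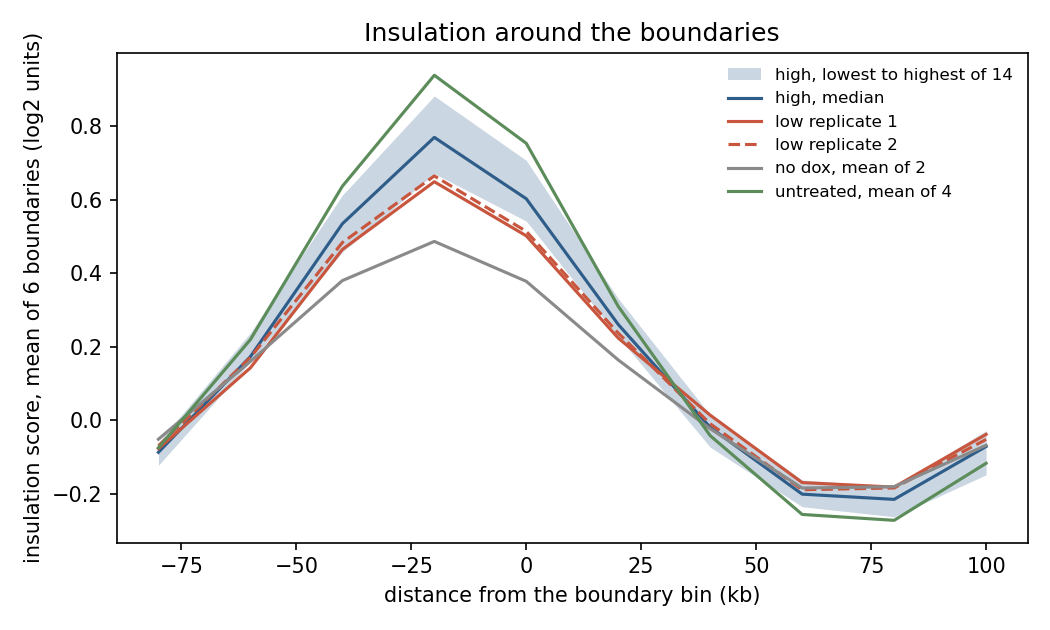
Mean insulation score (log2 units) of the 6 boundaries against the distance from the boundary bin in kb, for each low library, the median and range of the 14 high libraries, the mean of 2 libraries without dox and the mean of 4 untreated ones. The low lines run between those without dox and the high band at -20 and 0 kb, where both lie below the band, and meet the band at its edges.

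Across the whole profile, 193 bins of 20 kb were scored and compared with limma, which fits all bins together. The contacts scored for neighbouring bins overlap, so counts of bins are not counts of independent places. None passed after adjustment (0%), while 36 (18.7%) had an unadjusted p under 0.05, of which 24 (12.4%) were lower and 12 (6.22%) higher in the low line. Both low libraries lay below all 14 high ones in 14 bins (7.25%), 9 of them within 60 kb of a boundary, and above all of them in 8 (4.15%). The balance turned with a 200-kb window, where 24 bins were lower and 34 higher of 178 at an unadjusted p under 0.05. With the 100-kb window, 15 of the 24 lower bins and 3 of the 12 higher ones lay within 60 kb of a boundary. Within that distance lie 42 of the 193 bins. The same fit of the 2 libraries without dox against the same 14 high ones, added after the data were seen, called 58 of 193 bins (30.1%). Against the 5 high libraries of the same run, the fit called 32 bins (16.6%), 24 (12.4%) lower and 8 (4.15%) higher in the low line, at an adjusted p under 0.05. Of these 24 bins, 12 lay within 60 kb of a boundary. Among the 5 largest decreases of that fit, 3 were the boundary bin B4 and the 2 bins before it (differences of -0.26, -0.35 and -0.27; limma adjusted p = 0.011, 0.010 and 0.010). The other 2, chrX:101291148-101311148 and chrX:102291148-102311148, lay in segment 6 (-0.18 each). B5 and B6 also passed there (limma adjusted p = 0.029 and 0.010). Against only the 3 high libraries within 6 library numbers, B6 still passed, while B4 and B5 did not (limma adjusted p = 0.0035, 0.055 and 0.078). Among the 5 largest increases, 3 lay in segment 4 from 40 to 80 kb beyond B3, near Cdx4, Chic1 and Tsx, where scores in the low line were less negative. At 40 kb they were -0.17 and -0.20 in the low libraries and -0.49 to -0.18 over all 14 high ones, so 1 low library lay above all of them. The other 2, chrX:98931148-98951148 and chrX:99071148-99091148, lay in segment 1 (0.18 each).

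For their distance, contacts across boundaries were more frequent in the low line than in the high line. Observed over expected contact divides the contact of a bin pair by the mean of the same library at the same distance, so the fall of contact with distance drops out. With this centring a higher ratio across boundaries comes with a lower one within segments, so the 2 tests are not independent of each other. Within segments, at 40 to 1000 kb, the log2 ratio was 0.084 in both low libraries and 0.086 to 0.11 in the high ones, with a median of 0.097. Both low libraries lay just below the lowest high one, and the difference was -0.012 (exact permutation p = 0.0167, adjusted p = 0.029 over the 7 single-value tests). Between adjacent segments, across 1 boundary, the low libraries had -0.23 and -0.24 and the high ones -0.35 to -0.24 with a median of -0.28, so both low libraries lay above all 14. The difference was 0.047 on the log2 scale, a 1.03-fold higher contact (exact permutation p = 0.0167, adjusted p = 0.029). Without dox this ratio was -0.14 in both libraries, and in untreated cells -0.41 to -0.34. The low line stood at 66.9% of the way from no dox to high across 1 boundary and at 64.2% within segments. Against the 5 high libraries of the same run the differences were 0.064 and -0.016, again with no overlap. After thinning to equal depth they were 0.047 and -0.013. On raw counts without correction the difference across 1 boundary was 0.066 and did not pass (exact permutation p = 0.066).

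**Figure D3:**
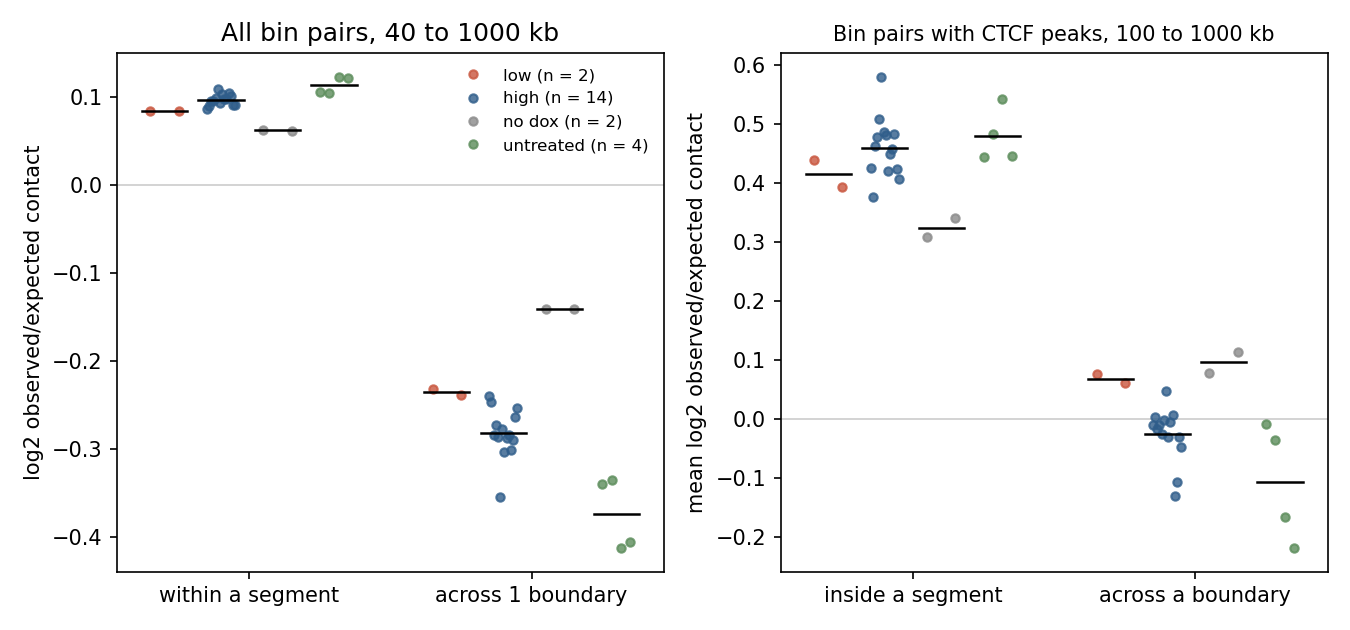
Log2 observed over expected contact by library, with a black bar at the group mean. The left panel covers all bin pairs 40 to 1000 kb apart, within a segment and across 1 boundary, and the right panel covers pairs 100 to 1000 kb apart in which both bins hold a FLAG–CTCF peak. The left panel leaves out boundary bins. The right panel keeps pairs with contact in every library, counts a boundary bin with the segment after it and includes pairs across several boundaries. The 2 low libraries lie above all 14 high ones across a boundary in both panels and within the high range for pairs of peak bins inside a segment.

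By distance, the shift across 1 boundary was largest close to the boundary. For the 36 bin pairs from 40 to under 100 kb apart, the low libraries had -0.35 and -0.41 and the high ones -0.57 to -0.42, so that all high libraries lay below both low ones. The difference was 0.11 there, 0.055 from 100 kb, 0.053 from 200 kb and 0.029 from 400 to 1000 kb, and from 100 kb on the groups overlapped. Within segments the low libraries lay below all high ones in the classes from 40, 200 and 400 kb, with differences of -0.0061, -0.021 and -0.026. These splits by distance were chosen after the totals were seen and were not tested.

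For blocks, inside a segment or between segments, all bin pairs at 40 kb and beyond were taken, without the upper limit of 1000 kb used above. The blocks are therefore not an exact breakdown of the totals within segments and across 1 boundary. Of single segments, segment 1 (Ogt, Cxcr3) and segment 5 (Rlim) held less contact of their own in the low line than in any high library. Segment 1 had 0.44 and 0.45 against 0.46 to 0.56, a difference of -0.062, and segment 5 had -0.084 and -0.075 against -0.073 to 0.032, also -0.062. These were 2 of 28 blocks (7.14%) whose groups did not overlap with the low line below, none (0%) lay wholly above, and none (0%) passed over the 28 blocks (exact permutation, adjusted p = 0.23 for both; a call needs 10 blocks at the smallest p). Segment 4, between B3 and B4, had 0.19 and 0.22 against 0.20 to 0.32 (difference -0.054; exact permutation, adjusted p = 0.47). Segments 2, 3, 6 and 7 differed by between -0.022 and 0.0026, within the spread of the high libraries.

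Of the 6 blocks between adjacent segments, 5 had a higher mean in the low line, and none passed. The largest difference was across B5, between segments 5 and 6: -0.26 and -0.25 in the low libraries, -0.46 to -0.22 in the high ones with a median of -0.38, -0.095 in both libraries without dox and -0.53 to -0.34 in untreated cells. Of the 14 high libraries, 12 lay below both low ones (difference 0.105; exact permutation, adjusted p = 0.47). Across B4, between segments 4 and 5, the low libraries had -0.90 and -0.95 and the high ones -1.196 to -0.84, a difference of 0.085. This is the block with the fewest contacts for its distance, and it stayed so without dox, at -0.963 and -0.999. Both of these values lay below the low libraries and within the high range, so the low line did not lie between no dox and high here. Across B1, B2 and B3 the differences were 0.025, 0.022 and 0.031. Across B6, between segments 6 and 7, the low libraries had 0.052 and 0.050 and the high ones -0.0040 to 0.18, a difference of -0.050, opposite in sign to the other 5. Without dox this block had -0.090 and -0.070, lower than in the low line, and in untreated cells 0.0035 to 0.13.

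**Figure D4:**
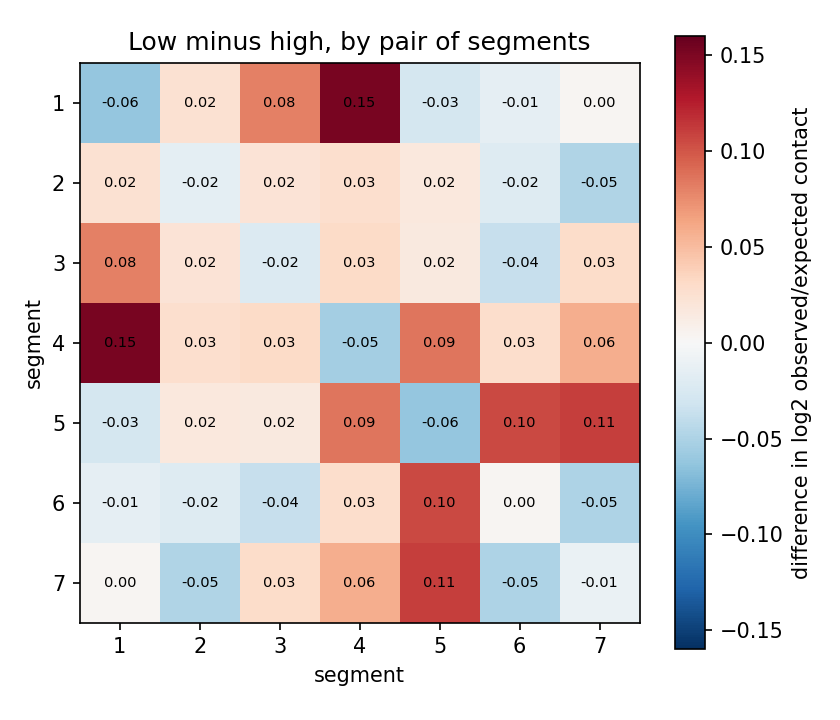
Difference between the low mean and the high mean of log2 observed over expected contact for each pair of the 7 segments, numbered along the chromosome, with blocks within a segment on the diagonal. All bin pairs at 40 kb and beyond enter, without an upper limit. Of the 28 blocks none passed the test; within-segment differences run from -0.06 to 0.00, and the largest between adjacent segments is 0.105, across B5.

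Over the map as a whole, 5459 bin pairs of 40 kb, at 80 kb and beyond, were compared with limma on log2(observed/expected + 0.1), a scale that understates changes of low values. None passed after adjustment (0%), and 3.76% had an unadjusted p under 0.05, 97 (1.78%) lower and 108 (1.98%) higher in the low line. The 3.76% is not above the share that an unadjusted threshold of 0.05 gives without any difference. The edgeR quasi-likelihood test on raw counts also called none, with 85 lower and 74 higher of 5445 at an unadjusted p under 0.05. DESeq2 called 1, a lower one, with 112 lower and 53 higher of 5460 at an unadjusted p under 0.05. The balance at that unadjusted threshold depended on the setting in limma too. It was 42 lower and 99 higher of 3746 for the median over primer pairs, and 23 and 60 of 1430 in 80-kb bins. With a pseudocount of 0.5 it was 85 and 140 of 5459. The same limma fit called 77 bin pairs (1.41%) between the libraries without dox and the high ones. Both low libraries lay above all 14 high ones in 69 bin pairs (1.26%) and below all of them in 35 (0.641%). For any bin pair, 1 of the 120 possible choices of 2 libraries lies above all others, and 1 lies below. Of the 1093 pairs across 1 boundary, 38 were above (3.48%) and 6 below (0.549%), whereas of the 1328 pairs within a segment 13 were above and 13 below (0.979% each).

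Between CTCF sites, the low line also differed across boundaries. Part of these pairs had entered the test across 1 boundary, and pairs without peaks were not compared separately. Of 344 bin pairs at 100 to 1000 kb in which both bins hold a FLAG–CTCF peak, 319 had contact in every library and were used. Their mean log2 ratio was 0.20 and 0.18 in the low libraries and 0.074 to 0.20 in the high ones (difference 0.046, exact permutation p = 0.067). For those of these pairs that span a boundary, it was 0.075 and 0.061 in the low libraries and -0.13 to 0.047 in the high ones with a median of -0.015. Both low libraries lay above all 14, and the difference was 0.094, a 1.07-fold higher contact (exact permutation p = 0.0167, adjusted p = 0.029 over the 7 single-value tests). Without dox these pairs had 0.077 and 0.11, and in untreated cells -0.22 to -0.0083. For the 111 pairs inside a segment, the low libraries had 0.44 and 0.39, within the high range of 0.38 to 0.58 (difference -0.044; exact permutation p = 0.25). Without dox they had 0.31 and 0.34, below both low libraries. Against the 5 high libraries of the same run, which had 0.48 to 0.58 inside a segment, both low libraries lay below, by -0.091 on average.

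The orientation of the motif letters splits these pairs further, as a description chosen after the data were seen. The 14 pairs inside a segment whose motifs face each other, the arrangement known for CTCF loops, had the highest ratio in every group: 0.87 and 0.92 in the low libraries, 0.80 to 1.196 in the high ones, 0.71 and 0.54 without dox and 1.15 to 1.19 in untreated cells. The low libraries fell inside the high range. The 10 pairs inside a segment whose motifs point the same way had 0.37 and 0.17 in the low libraries and -0.045 to 0.36 in the high ones. There 1 low library lay above all high ones, and the values without dox were 0.17 and 0.18. The 16 pairs across a boundary whose motifs face away from each other had 0.024 and 0.013 in the low libraries and -0.47 to -0.013 in the high ones, so both low libraries lay above, and the 35 pairs across a boundary whose motifs point the same way had 0.091 and 0.023 against -0.40 to 0.048. The 10 pairs across a boundary whose motifs face each other had 0.15 and 0.015 in the low libraries, within the high range of -0.27 to 0.18, and -0.23 and -0.011 without dox.

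The fall of contact with distance showed no difference that passed its test, although the decay exponent depended on how primer pairs were averaged. The log2 mean contact of a distance class was taken relative to all bin pairs at 40 kb and beyond. From 40 to 100 kb it was 3.15 and 3.16 in the low libraries and 3.06 to 3.24 in the high ones. From 100 kb it was 2.07 and 2.09 against 1.93 to 2.15, from 200 kb 1.21 in both against 1.06 to 1.24, and from 400 kb 0.19 and 0.18 against 0.15 to 0.25. The low libraries lay within the high range in each of these classes, and the means differed by at most 0.0074. From 800 kb they had -1.03 and -1.05 against -1.24 to -0.89, from 1600 kb -2.40 and -2.42 against -2.62 to -1.80, and from 3200 kb -3.39 and -3.45 against -3.59 to -2.42. None of the 7 classes (0%) passed (exact permutation, adjusted p = 1.0 for all). The SD of the high libraries grew from 0.053 in the nearest class to 0.33 in the farthest, so a difference in the far classes was less detectable. The decay exponent, the slope of log10 contact on log10 distance from 100 to 1000 kb, was -0.98 and -0.99 in the low libraries and -1.07 to -0.90 in the high ones (difference 0.0057; exact permutation p = 0.63). Against the 5 high libraries of the same run, -1.07 to -0.99, both low libraries lay above all 5, by 0.035. With the median over primer pairs in place of the mean, the difference over all 14 was 0.049 (exact permutation p = 0.0167), and on raw counts it was -0.016.

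**Figure D5:**
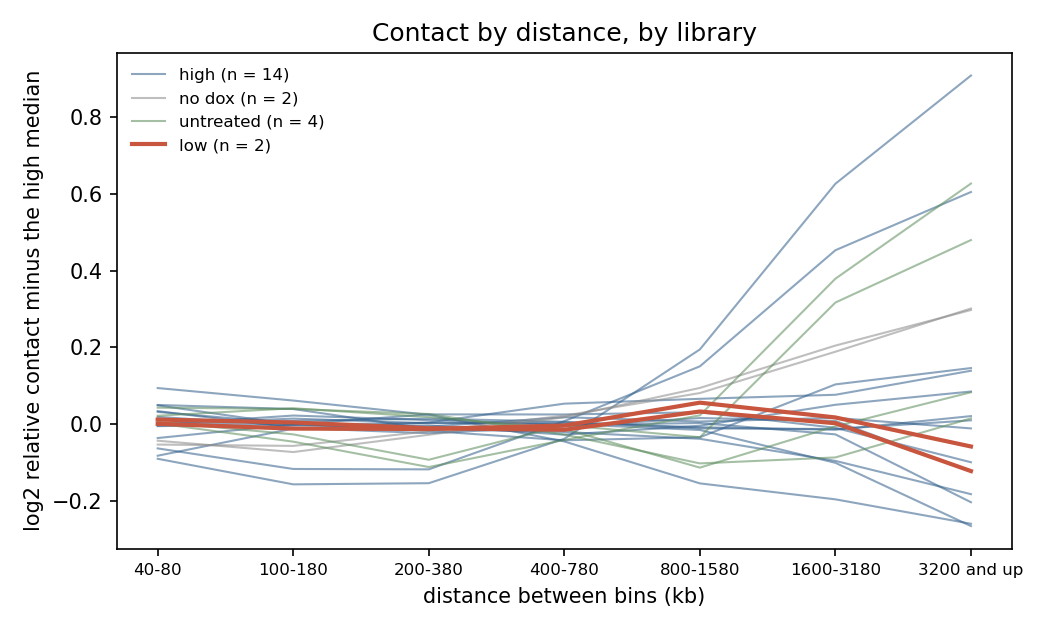
Log2 relative contact of each library minus the median of the 14 high libraries, for 7 classes of distance between bins in kb, 1 line per library. Both low libraries stay within the high range in all 7 classes, and the high libraries spread most at 3200 kb and beyond, where 2 of them lie highest.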

How the data were processed

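The deposited 5C files hold raw counts per primer pair and contact signal that the authors corrected by iterative correction (ICE). Per the labels' processing notes, Bowtie2, SAMtools and the mm9 build were used, with versions not given in the sources used here. The FLAG–CTCF peak positions are as deposited. Corrected maps were cut to the 919 primers common to all libraries, scaled to a sum of 1000000 and averaged in 20-kb bins, of which 193 of 230 could be scored with at least 50% of the 100-kb square measured. The count tables of 2 high libraries stop early, so these entered no count-based step. Single values were compared by exact permutation over libraries, and bins and bin pairs by limma 3.58.1 with a trend and robust variances in R 4.3.3, with edgeR 4.0.16 and DESeq2 1.42.0 on counts as alternatives and Benjamini-Hochberg adjustment throughout. Scripts were tested on simulated data. The libraries, boundaries and lists were chosen with earlier results of these data known. All 6 boundaries, 7 segments, 7 distance classes and 6 adjacent blocks are named, plus the 5 largest called bins in each direction against the high libraries of the same run. Of the 14 libraries with complete counts, no 2 had more than 9.09% equal counts, so none was counted as a repeat, and the other 2 were not checked.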

Additional observations from a re-analysis of the deposited data

How the results depend on the processing

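Depth, 2 low libraries and 1 clone per line limit these results: after leaving out either low library the smallest p is 0.133, with 5 high libraries 0.0952 and with 3 high libraries 0.2, so no exact test can pass there. The cause of the changes listed here was not tested. The mean insulation difference of -0.099 was -0.120 in the same run of library numbers (p = 0.0952, exact permutation), -0.126 within 6 library numbers, and -0.0912 to -0.105 without any 1 library. Contact within segments was -0.0158, -0.0175 and -0.0115 to -0.0132 under these settings, and contact across 1 boundary 0.0636, 0.0762 and 0.0411 to 0.0502, with 0.0660 on raw counts. The replicate numbers did not pair the libraries (correlations of 0.0389 and 0.0073 with the same number), and with the number as a block, where the smallest p is 0.5, the differences were -0.0571, -0.00358 and 0.00846, the decay exponent -0.00526, B4 0.0054, the classes from 200 and 800 kb -0.027 and -0.0038, blocks 1-2, 2-3 and 4-5 -0.015, -0.024 and -0.033, and peak bins inside a segment 0.016. The decay difference of 0.0057 turned to -0.0159 on raw counts, -0.0206 from 200 to 600 kb and -0.000286 and -0.000345 without low replicate 1 and high replicate 6, and was 0.0494 with the median over primer pairs (exact permutation p = 0.0167). Contact between peak bins passed at 0.101 on raw counts, 0.0507 with a peak in the bin or the next, and 0.0501 to 0.0502 without high replicates 8 or 6, with 0.0331 to 0.0584 over all left-out libraries.

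Counts of calls moved as follows. Boundaries went from 0 to 3 without the later high library of replicate 3 and to 3 without both libraries of most far contact, an alternative chosen after seeing the data. Insulation bins went from 0 to 32 in the same run, 17 within 6 numbers, 3 without both far-contact libraries, and 1 and 2 without high replicates 12 and 9. Bin pairs went from 0 to 3 with the median, 3 with 20-kb bins, 2 within 6 numbers and 1 with DESeq2.

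Single differences that changed sign were as follows, the largest in the far distance classes. B1 was -0.034 on raw counts, -0.0034 in the same run and -0.0140 to 0.0324 over left-out libraries. The distance classes from 40, 100, 200, 1600 and 3200 kb were -0.038, -0.035, -0.027, 0.26 and 0.11 with the median, and those from 40, 100, 200 and 1600 kb were -0.020, -0.028, -0.016 and 0.070 in the same run and -0.0057, -0.013, -0.013 and 0.027 without both far-contact libraries. Within 6 numbers the classes from 40, 100, 200, 400, 1600 and 3200 kb were -0.041, -0.042, -0.016, 0.011, 0.11 and 0.050. The class from 800 kb was -0.0051 on raw counts, those from 100 and 200 kb were -0.0045 and -0.0058 in 40-kb bins, -0.0037 and -0.0041 without the later high library of replicate 3 and -0.00068 and -0.0014 without that of replicate 4, and those from 100, 200 and 400 kb ran from -0.00375 to 0.0152, -0.00413 to 0.00968 and -0.0100 to 0.00102 over all left-out libraries, with -0.000284 for the class from 100 kb without low replicate 2. On raw counts blocks 3-3, 6-6 and 7-7 were 0.021, -0.027 and 0.025, and peak bins inside a segment 0.012. Block 7-7 was 0.0084 with a new correction, 0.000079 after thinning, 0.029 in 40-kb bins, and 0.0188, 0.00125 and 0.00230 without low replicate 1, high replicate 1 and high replicate 2, in a range from -0.0398 to 0.0188 over left-out libraries. Block 6-6 was -0.00069 with the median and -0.000135 to 0.00410 over left-out libraries (0.00403 without high replicate 6), block 2-3 was -0.000106 to 0.0441 over left-out libraries, and block 2-2 was 0.0050 in 40-kb bins. In the same run blocks 3-3 and 3-4 were 0.0024 and -0.012. Within 6 numbers blocks 2-2, 3-4, 6-6, 6-7 and 7-7 were 0.0074, -0.0029, -0.0043, 0.013 and 0.040.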
